A study of Mus musculus with 16 samples.

Results

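Interferon-stimulated genes are the antiviral and antigen-presentation genes that cells switch on when an interferon binds its receptor. A set of 40 such genes was followed by name in a table of read counts and by the same gene identifier in a table of TPM (transcript levels scaled to gene length and library total), out of 54532 genes listed in each. Of these, 30 are mainly responsive to type I interferon and 10 to interferon-gamma, and all 40 were found and passed the filter on low values in both tables. The division into classes is a convention, since most of these genes answer both kinds of interferon to some degree.

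The cells were of the mouse pancreatic cancer line KPC1199, grown as orthotopic tumours in the pancreas and sorted from them. Of 16 samples labelled, the 8 of sorted cells were used, and the 8 of whole tumour tissue were not analysed here. Sorted cells overexpressing Ly6d were compared with sorted WT cells, and sorted Ly6d-high cells with sorted Ly6d-low cells, with 2 libraries in each of these groups. Ly6d encodes a surface protein of the Ly6 family held by a lipid anchor. The stated aim of the study was to learn how Ly6d acts on the start and growth of pancreatic cancer. All groups share the KPC1199 background and growth in the pancreas. The labels give neither the host strain nor the age of the mice, the vector or promoter behind the overexpression, the number of clones, the sorting gate, nor whether libraries of a group came from separate animals. The p-values below therefore measure the spread between these libraries only, which may be technical. The count columns of the overexpression group carry the library name of overexpression tumours, not that of the sorted samples, so their assignment is an inference.

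Type I interferons signal through IFNAR1 and IFNAR2 to a complex that holds STAT2 and IRF9 and binds the interferon-stimulated response element (ISRE). Interferon-gamma signals through IFNGR1 and IFNGR2 to the gamma-activated site (GAS), and then through IRF1, which can itself bind ISRE-like sequence. In tumour cells the first response is known for antiviral proteins and the second for antigen presentation, guanylate-binding proteins and chemokines that attract T cells.

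Library totals ran from 18001470 to 18290325 counts in overexpression cells and from 15449241 to 18108850 in WT cells. In the other table, reads recovered from the TPM came to 18362419 and 20509539 in Ly6d-high cells, against 15063975 and 19322028 in Ly6d-low cells. The members rested on 89 to 16009 counts per library in the first table and on 37 to 16976 reads in the second, Mx2 being the lowest in both. Ly6d itself was 2.92 times higher in mean CPM (counts scaled to the library total) in overexpression than in WT cells (log2 fold change 1.53 ± 0.08, SE; edgeR quasi-likelihood adjusted p = 1.66e-07). Between the cells sorted on Ly6d it differed by 8.32 ± 0.31 in log2(TPM + 1) (SE, from limma; adjusted p = 2.46e-05), a difference that the sort itself set. Epithelial markers of the labelled cell type summed to 12656 and 13350 CPM in overexpression cells, against 12348 and 11961 CPM in WT cells. In the bulk libraries used here, fewer cells of a type and less RNA per cell cannot be told apart.

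Interferon-gamma members were the more abundant class per length in all 4 groups. In RPKM (CPM divided by gene length in kilobases), the median of the 10 interferon-gamma members was 65.8 in overexpression cells and 76.8 in WT cells. The median of the 30 type I members was 12.3 RPKM in overexpression cells and 9.89 RPKM in WT cells. In TPM, the interferon-gamma median was 306 in Ly6d-high and 263 in Ly6d-low cells, and the type I median was 38.9 in Ly6d-high and 27.3 in Ly6d-low cells. Levels in RPKM and in TPM were normalized separately and were not compared.

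At the top of the interferon-gamma class per length stood Gbp2, a guanylate-binding protein that attacks vacuoles holding pathogens, with 287 RPKM in overexpression cells and 359 RPKM in WT cells. Igtp, an immunity-related GTPase also called Irgm3, led it in the sorted pair with 928 ± 79.2 TPM in Ly6d-high cells and 660 ± 29.1 TPM in Ly6d-low cells (SD, n = 2 each). The lowest of the class was Gbp5, a guanylate-binding protein that promotes inflammasome assembly, at 9.45 RPKM in overexpression cells and 10.4 RPKM in WT cells. Among type I members Bst2 (tetherin, which holds budding virus at the cell surface) was highest per length in overexpression and WT cells, at 205 and 207 RPKM. Ifi27, a mitochondrial interferon-inducible protein, was highest in Ly6d-high and Ly6d-low cells, at 571 ± 77.3 TPM and 532 ± 10.4 TPM (SD, n = 2 each). These 2 neighbours in the order of levels did not separate beyond their spread in Ly6d-high cells, where Bst2 had 562 and 408 TPM and Ifi27 had 625 and 516 TPM. The antiviral GTPase Mx2 was lowest in 3 of the 4 groups, at 2.06 ± 0.741 TPM in Ly6d-high cells and 2.39 ± 0.767 TPM in Ly6d-low cells (SD, n = 2 each).

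Promoters were searched for the letters of both response elements. Shown are 7 that hold an ISRE-core match and whose genes passed the threshold in overexpression against WT cells, so that members called in opposite directions can be set side by side. RefSeq windows of build GRCm38.p6, reaching 250 bases before and 50 bases after each gene's start, were matched by symbol to 31 of the 40 members, 22 of type I and 9 of interferon-gamma. The ISRE core was searched as GAAA, any 2 bases and GAAA again, on both strands, and a GAS-like motif as TTCNNNGAA, which reads the same on both strands. Printed are the 250 bases before the start, 5′ to 3′ on the gene's strand, with matches in capitals. From the Ifit cluster on chromosome 19, whose genes encode proteins that bind viral RNA, the sequences are:
Ifit1, chr19:34640639-34640888, + strand: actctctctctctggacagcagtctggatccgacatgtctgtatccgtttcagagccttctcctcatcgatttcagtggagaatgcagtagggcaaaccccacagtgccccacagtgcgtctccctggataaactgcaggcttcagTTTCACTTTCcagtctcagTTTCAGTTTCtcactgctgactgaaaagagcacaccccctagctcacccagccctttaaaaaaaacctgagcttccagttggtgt
Ifit3, chr19:34583279-34583528, + strand: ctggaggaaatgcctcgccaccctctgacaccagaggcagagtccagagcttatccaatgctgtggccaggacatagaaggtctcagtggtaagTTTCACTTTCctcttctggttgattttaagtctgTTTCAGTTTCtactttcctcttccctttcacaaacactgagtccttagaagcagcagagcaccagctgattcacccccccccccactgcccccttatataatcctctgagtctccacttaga
Ifit3b, chr19:34607707-34607956, + strand: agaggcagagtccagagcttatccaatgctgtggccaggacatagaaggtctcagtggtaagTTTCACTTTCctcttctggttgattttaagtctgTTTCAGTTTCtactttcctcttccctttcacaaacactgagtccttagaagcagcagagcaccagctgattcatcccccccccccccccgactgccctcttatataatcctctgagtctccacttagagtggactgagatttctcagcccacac
Each of these 3 promoters held a pair of ISRE-core matches, all on the strand opposite to the gene's. In Ifit1 the pair lay at positions -104 to -95 and -85 to -76 from the start, and in Ifit3 at -156 to -147 and -122 to -113. Those of Ifit3b lay at -188 to -179 and -154 to -145, within a run of 169 bases identical to the Ifit3 promoter and offset by 32 bases.

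From the interferon-gamma class, 4 of the 5 members that were lower in overexpression cells have a window. Irgm1 encodes a GTPase that regulates autophagy and the other GTPases of its family.
Gbp2, chr3:142620413-142620662, + strand: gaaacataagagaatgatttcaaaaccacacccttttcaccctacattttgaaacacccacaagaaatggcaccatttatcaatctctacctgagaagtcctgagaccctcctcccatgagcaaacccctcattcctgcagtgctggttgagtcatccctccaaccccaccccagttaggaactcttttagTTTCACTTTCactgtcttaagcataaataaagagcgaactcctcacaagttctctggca
Gbp3, chr3:142559794-142560043, + strand: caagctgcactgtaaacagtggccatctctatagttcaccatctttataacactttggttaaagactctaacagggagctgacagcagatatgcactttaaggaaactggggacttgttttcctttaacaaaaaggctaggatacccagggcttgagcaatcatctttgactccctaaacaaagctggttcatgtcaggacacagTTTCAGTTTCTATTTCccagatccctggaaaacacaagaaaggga
Igtp, chr11:58199306-58199555, + strand: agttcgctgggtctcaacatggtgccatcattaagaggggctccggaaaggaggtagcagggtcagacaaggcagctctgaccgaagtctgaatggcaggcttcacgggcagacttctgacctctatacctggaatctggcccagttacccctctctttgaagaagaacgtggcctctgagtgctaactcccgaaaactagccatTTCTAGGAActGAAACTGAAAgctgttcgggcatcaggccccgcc
Irgm1, chr11:48871421-48871670, - strand: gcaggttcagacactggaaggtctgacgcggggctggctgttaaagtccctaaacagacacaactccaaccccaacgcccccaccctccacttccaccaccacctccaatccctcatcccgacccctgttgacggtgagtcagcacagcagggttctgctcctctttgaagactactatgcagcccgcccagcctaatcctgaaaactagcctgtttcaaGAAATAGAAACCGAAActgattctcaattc
Gbp2 held 1 ISRE-core match, at -59 to -50. Gbp3 and Irgm1 each held 2 that overlap one another, so that their capitals run together. Igtp held a GAS-like match at -45 to -37 followed by an ISRE-core match at -34 to -25.

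ISRE-core matches were found in the windows of 12 of 22 type I members (54.5%) and 6 of 9 interferon-gamma members (66.7%), against 3.99% of 27025 genes with a window. GAS-like matches were found in 5 of 22 type I members (22.7%) and 5 of 9 interferon-gamma members (55.6%), against 9.55% of all genes. Both motifs were present in 3 members of each class. Ifit2, also higher in overexpression cells, held a GAS-like match at -241 to -233 in the first of its 2 windows and no ISRE-core match in either, and so is not among the sequences shown. A match describes the letters only, and the factors themselves were not measured at these promoters.

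**Figure D1:**
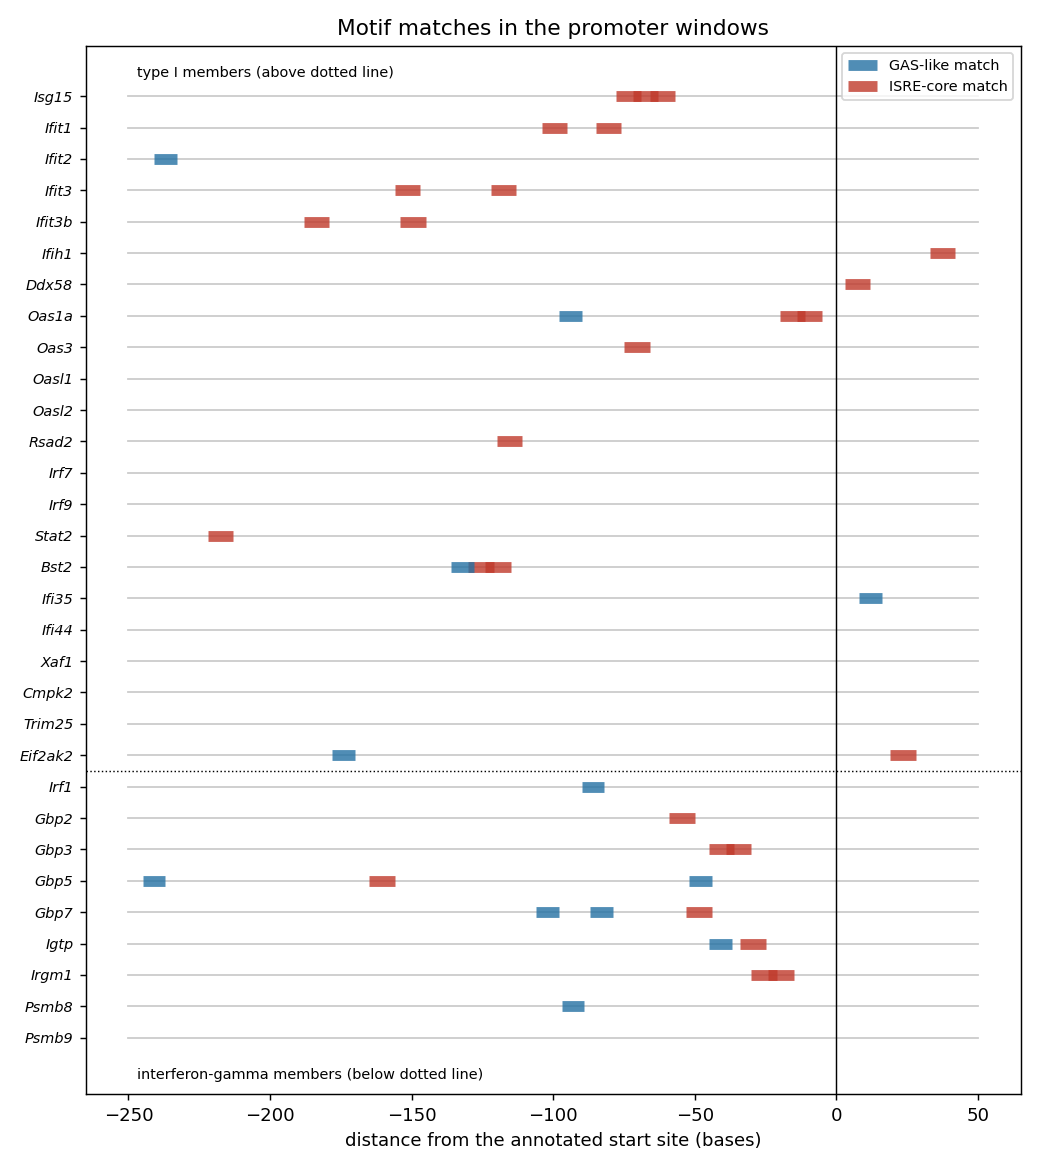
Positions of motif matches in the promoter windows of the 31 members that have one, in bases from the annotated start site (x axis), with one line per gene (y axis), type I members above the dotted line and interferon-gamma members below it. Red bars are ISRE-core matches and blue bars GAS-like matches. ISRE-core bars occur in 12 of 22 type I and 6 of 9 interferon-gamma windows.

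In cells overexpressing Ly6d, every type I member past the threshold was higher than in WT cells and every interferon-gamma member past it was lower. Of 30 type I members 5 were called higher and 0 lower, and of 10 interferon-gamma members 0 were called higher and 5 lower. Across all 15771 genes tested, 2.32% were called higher and 1.84% lower (edgeR quasi-likelihood test, Benjamini-Hochberg adjusted p under 0.05). At an unadjusted p under 0.05, 3 type I members were lower and 0 interferon-gamma members were higher. DESeq2 called 5 type I members higher and 0 lower, and 0 interferon-gamma members higher and 6 lower, where it called 2.24% of all genes higher and 1.66% lower. The median log2 fold change was 0.13 over the type I members and -0.24 over the interferon-gamma members, while over all genes tested it lay at -0.001. All 10 interferon-gamma values were negative, in a range of -0.34 to -0.09, whereas type I values ran from -0.30 to 0.90. The shifts were small, since the largest among members was a ratio of 1.88 in mean CPM. The difference between the classes was not itself tested.

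**Figure D2:**
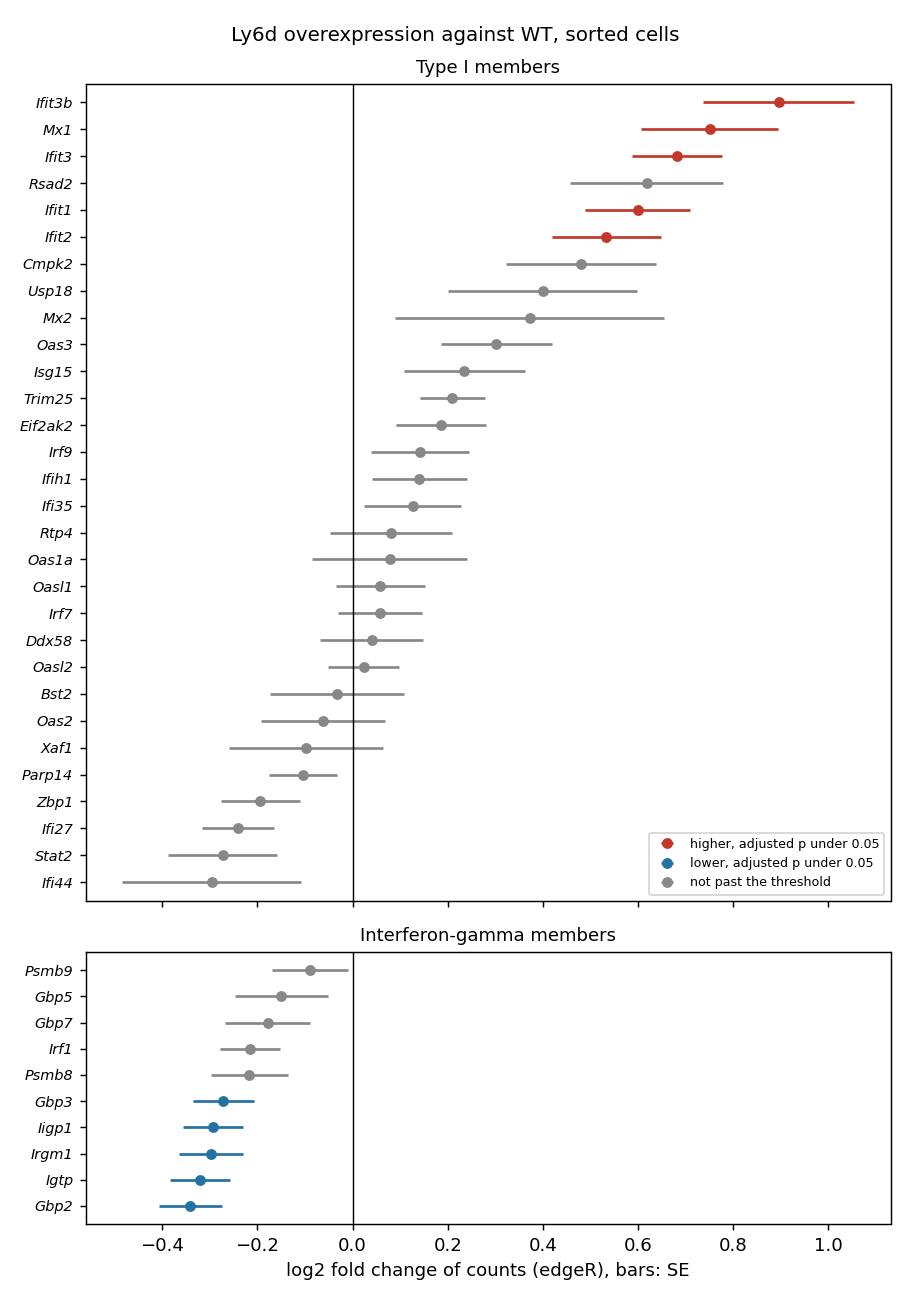
Log2 fold change of counts (x axis, edgeR, bars: SE) of Ly6d overexpression against WT sorted cells for each of the 30 type I members (upper panel) and the 10 interferon-gamma members (lower panel). Red and blue points passed an adjusted p of 0.05 upwards and downwards, grey points did not; 5 type I members lie on the right and 5 interferon-gamma members on the left.

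Neighbours on chromosome 19 made up 4 of the 5 rises. Ifit3 (GRCm38, 34583531 to 34588731) was at 76.7 and 80.6 CPM in overexpression cells, against 47.4 and 49.5 CPM in WT cells. Ifit3b was at 29.5 and 28.8 CPM in overexpression cells, against 14.0 and 17.0 CPM in WT cells. Both were higher in each overexpression library than in either WT library. The log2 fold change was 0.68 ± 0.10 for Ifit3 (SE; edgeR adjusted p = 0.00187) and 0.90 ± 0.16 for Ifit3b (SE; edgeR adjusted p = 0.00853). Of 75-base stretches, 41.1% of those of Ifit3 and 35.7% of those of Ifit3b occur in transcripts of other genes. Each of these paralogs was the gene that shared most with the other, so how their reads were split is uncertain.

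Ifit1 (GRCm38 chromosome 19, 34640871 to 34650009) encodes a protein that binds viral RNA. It was at 48.6 and 48.7 CPM in overexpression cells, against 32.5 and 30.9 CPM in WT cells. Ifit2 (34550694 to 34576419), which partners the other IFIT proteins, was at 45.0 and 43.8 CPM in overexpression cells, against 29.9 and 30.7 CPM in WT cells. Neither gene's groups overlapped, and the overexpression libraries lay close together. The log2 fold change was 0.60 ± 0.11 for Ifit1 (SE; edgeR adjusted p = 0.0106) and 0.53 ± 0.11 for Ifit2 (SE; edgeR adjusted p = 0.0245). Ifit2 lost its call without either WT library, at adjusted p = 0.144 without WT replicate 1 and 0.0706 without WT replicate 2, in a range of 0.00417 to 0.144 over 8 alternatives. The neighbouring paralog Ifit1bl1, from the list of further type I-inducible genes, was at 32.5 and 30.2 CPM in overexpression cells, against 22.9 and 22.7 CPM in WT cells, and did not pass the test.

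Outside this cluster Mx1 (chromosome 16), a GTPase that blocks influenza and related viruses, was at 31.3 and 28.6 CPM in overexpression cells, against 18.3 and 16.9 CPM in WT cells. Both overexpression libraries were above both WT libraries, and the log2 fold change was 0.75 ± 0.14 (SE; edgeR adjusted p = 0.0138), with adjusted p = 0.0626 without WT replicate 2 in a range of 0.000499 to 0.0626 over 8 alternatives. Rsad2 (viperin, which makes a chain-terminating nucleotide) came next in size without passing, with 31.4 and 24.6 CPM in overexpression cells, against 18.2 and 17.8 CPM in WT cells (edgeR adjusted p = 0.0598). Its neighbour Cmpk2, a nucleotide kinase, was at 24.1 and 29.6 CPM in overexpression cells, against 19.5 and 18.5 CPM in WT cells (edgeR adjusted p = 0.132).

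The other type I members did not pass the test, and they can be read by role. Among sensors of foreign nucleic acid, Ifih1 (MDA5) was at 50.2 and 51.3 CPM in overexpression cells, against 46.6 and 44.3 CPM in WT cells. Ddx58 (RIG-I) overlapped between groups, at 56.6 and 49.9 CPM in overexpression cells, against 49.2 and 53.2 CPM in WT cells. The kinase Eif2ak2 (PKR), which stops translation on binding double-stranded RNA, was at 64.0 and 66.9 CPM in overexpression cells, against 58.7 and 55.0 CPM in WT cells. The log2 fold changes of these sensors were 0.14, 0.04 and 0.19, none past the threshold. Zbp1, which senses Z-form nucleic acid and can trigger necroptosis, was at 92.7 and 101 CPM in overexpression cells, against 114 and 105 CPM in WT cells. The oligoadenylate synthetase family, some of whose proteins activate RNase L, ran from -0.06 for Oas2 to 0.30 for Oas3 in log2 fold change. Oas1a was at 0.08, Oasl1 at 0.06 and Oasl2 at 0.02. Much of the Oas1a transcript is shared with other genes (47.6% of 75-base stretches), most of all with the paralog Oas1g.

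Of the 3 transcription factors of the type I response, 0 passed the test with edgeR or DESeq2, and 1, Stat2, had an unadjusted p under 0.05 with edgeR. Irf9 was at 60.3 and 67.8 CPM in overexpression cells, against 59.9 and 54.8 CPM in WT cells. Stat2, its partner, was at 44.5 and 37.9 CPM in overexpression cells, against 51.2 and 47.1 CPM in WT cells, without overlap in either gene and without passing the test. Irf7, which amplifies interferon production, was at 81.1 and 75.2 CPM in overexpression cells, against 73.9 and 74.3 CPM in WT cells. Among effectors, the ubiquitin-like protein Isg15 had a log2 fold change of 0.23, its deconjugating enzyme Usp18 0.40, the ligase Trim25 0.21 and the GTPase Mx2 0.37. Those with negative values were Ifi44, Ifi27, Parp14, Xaf1 and Bst2, from -0.30 to -0.03, and the receptor transporter Rtp4 and the adaptor Ifi35 lay at 0.08 and 0.13. In all, 21 type I members were higher in both overexpression libraries than in both WT libraries and 5 were lower in both, where 26.3% and 21.7% of all genes tested separated in these directions.

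The interferon-gamma members that fell were guanylate-binding proteins and immunity-related GTPases, interferon-induced defences against pathogens that live in vacuoles. Gbp2 (GRCm38 chromosome 3, 142620602 to 142638008) was at 724 and 719 CPM in overexpression cells, against 884 and 920.4 CPM in WT cells. Gbp3 was at 198 and 193 CPM in overexpression cells, against 231 and 235 CPM in WT cells. Both were lower in each overexpression library. The log2 fold change was -0.34 ± 0.07 for Gbp2 (SE; edgeR adjusted p = 0.0147) and -0.27 ± 0.06 for Gbp3 (SE; edgeR adjusted p = 0.0393). Of their neighbours, Gbp5 was at 66.6 and 58.8 CPM in overexpression cells, against 68.5 and 69.0 CPM in WT cells. Gbp7 overlapped between groups, at 172 and 141 CPM in overexpression cells, against 178 and 171 CPM in WT cells, and neither passed the test.

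Igtp (chromosome 11) was at 313 and 298 CPM in overexpression cells, against 380.2 and 374 CPM in WT cells. Iigp1 (Irga6, chromosome 18), which disrupts the vacuole of Toxoplasma, was at 356 and 341 CPM in overexpression cells, against 419 and 424 CPM in WT cells. Irgm1 was at 208 and 223 CPM in overexpression cells, against 262 and 262 CPM in WT cells. None of these 3 overlapped between the groups. Their log2 fold changes were -0.32 ± 0.06 for Igtp (SE; edgeR adjusted p = 0.0152), -0.29 ± 0.06 for Iigp1 (SE; edgeR adjusted p = 0.0248) and -0.30 ± 0.07 for Irgm1 (SE; edgeR adjusted p = 0.0301). The annotated spans of Igtp and Irgm2 overlap on the same strand, so reads of that locus may be shared or lost. Without overexpression replicate 2 (numbered as in the count columns), 4 of the 5 lost their calls (Gbp2, Gbp3, Igtp and Iigp1, edgeR adjusted p of 0.0523 to 0.103), Irgm1 lost its call without overexpression replicate 1 (0.0781) and Gbp3 without WT replicate 2 (0.143). Their direction held in all 8 alternatives tried. These refit the same libraries, whose groups did not overlap for these genes, so a reversal was hardly possible.

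Irf1, the factor that carries the interferon-gamma signal onward, was at 349.9 and 351 CPM in overexpression cells, against 415 and 389 CPM in WT cells, and missed the threshold (edgeR adjusted p = 0.0907), though DESeq2 called it lower. The immunoproteasome subunits, which cut peptides for presentation on MHC class I, did not pass. Psmb8 was at 184 and 209 CPM in overexpression cells, against 238 and 213 CPM in WT cells. Psmb9 overlapped, at 127 and 123 CPM in overexpression cells, against 141 and 122 CPM in WT cells. Summed over the class, the interferon-gamma members came to 2696 and 2658 CPM in overexpression cells, against 3216 and 3179 CPM in WT cells. The type I members summed to 1810 and 1833 CPM in overexpression cells, against 1731 and 1628 CPM in WT cells.

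**Figure D3:**
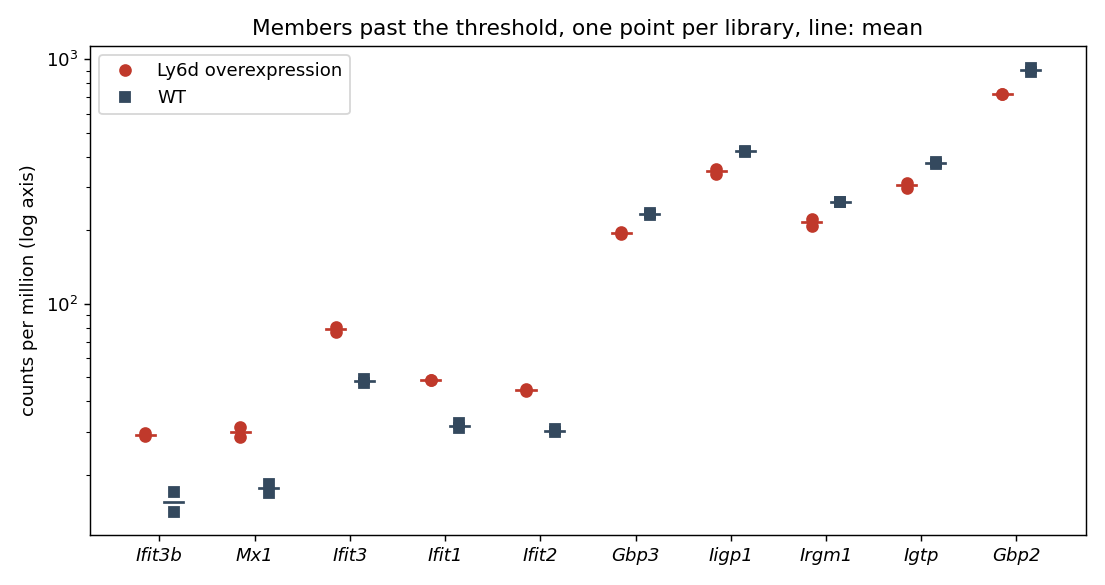
CPM (y axis, log scale) of the 10 members past the threshold in the comparison of Ly6d overexpression (red circles, left of each pair) with WT (dark squares), one point per library and a line at the mean. The 5 type I members lie at 80.6 CPM or less and above their WT values, and the 5 interferon-gamma members lie at 193 CPM or more and below theirs.

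The wider pathway was read from lists that hold none of the members. Of 20 genes for interferons themselves, 0 could be tested: 17 had no read in any of the 4 libraries, which allows a level of up to 0.164 to 0.194 CPM per library. Ifng, which encodes interferon-gamma, was at 0.820 and 0.111 CPM in overexpression cells, against 0.221 and 0.194 CPM in WT cells, with overlap. Of 11 receptor and signalling genes, 1 was higher: Ifngr2, the signalling chain of the interferon-gamma receptor, had 127 and 142 CPM in overexpression cells, against 98.7 and 96.8 CPM in WT cells. It did not overlap, and its log2 fold change was 0.44 ± 0.08 (SE; edgeR adjusted p = 0.0106).

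Of 30 further type I-inducible genes 0 passed in either direction with edgeR or DESeq2, with 4 higher and 2 lower at an unadjusted p under 0.05 by edgeR, and their median log2 fold change was 0.05. The rise of the IFIT genes was thus not seen as calls in this wider list. Of 26 further interferon-gamma-inducible genes 0 were higher and 5 lower, with a median of -0.22 (2 were higher at an unadjusted p under 0.05, and DESeq2 called 0 higher). The T cell chemokine Cxcl9 had the lowest p, at 110 and 104 CPM in overexpression cells, against 159 and 148 CPM in WT cells (log2 fold change -0.54 ± 0.07, SE; edgeR adjusted p = 0.00157). Also lower were the proteasome activator subunit Psme2 (-0.48 ± 0.08, SE; edgeR adjusted p = 0.00556), Gbp4 (-0.50 ± 0.09, SE; edgeR adjusted p = 0.00798) and the GTPase Tgtp1 (-0.37 ± 0.08, SE; edgeR adjusted p = 0.0253). Psmb10, an immunoproteasome subunit, was the fifth. Of 7 negative regulators and 12 sensors and adaptors tested, 0 passed with edgeR. At an unadjusted p under 0.05, 2 regulators were higher and 0 lower, and 1 sensor or adaptor was higher and 3 lower. DESeq2 called 1 regulator higher, the feedback inhibitor Socs3, and 0 sensors.

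Markers of other cell types moved between these same libraries. Pan-leukocyte markers summed to 47.5 and 49.7 CPM in overexpression cells, against 10.1 and 8.80 CPM in WT cells, with 5 of 5 called higher. Macrophage markers summed to 288 and 299 CPM in overexpression cells, against 114 and 116 CPM in WT cells, with 6 of 15 called higher. Neutrophil markers summed to 175 and 187 CPM in overexpression cells, against 57.5 and 56.0 CPM in WT cells, with 7 of 10 called higher. These 3 sums were thus higher in both overexpression libraries, while those of acinar and endothelial cells were lower. Dendritic cell markers overlapped, with sums of 12.1 and 6.17 CPM in overexpression cells, against 7.62 and 4.85 CPM in WT cells. Acinar markers summed to 1507 and 1645 CPM in overexpression cells, against 20491 and 20920 CPM in WT cells, with 12 of 12 called lower. Endothelial markers summed to 142 and 166 CPM in overexpression cells, against 299 and 292 CPM in WT cells, with 6 of 9 called lower. T and natural killer cell markers, from cells that make interferon-gamma, summed to 6.83 and 7.78 CPM in overexpression cells, against 1.71 and 1.17 CPM in WT cells, with Prf1 at 0 in all libraries. Of the 2 such genes tested 0 were called by edgeR or DESeq2, though both were higher at an unadjusted p under 0.05. B and plasma cell markers had 2 of 4 tested genes higher (Jchain and Mzb1), dendritic markers 1 of 5 (Itgax) and fibroblast markers 2 of 8 (Col1a2 and Pdgfrb), and of 7 epithelial markers 1 was lower (Cldn4). The summed interferon-gamma members were lower in overexpression cells, as were the acinar and endothelial sums. The pan-leukocyte, macrophage and neutrophil sums were higher there. The part of these cells in the members' differences was not tested.

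**Figure D4:**
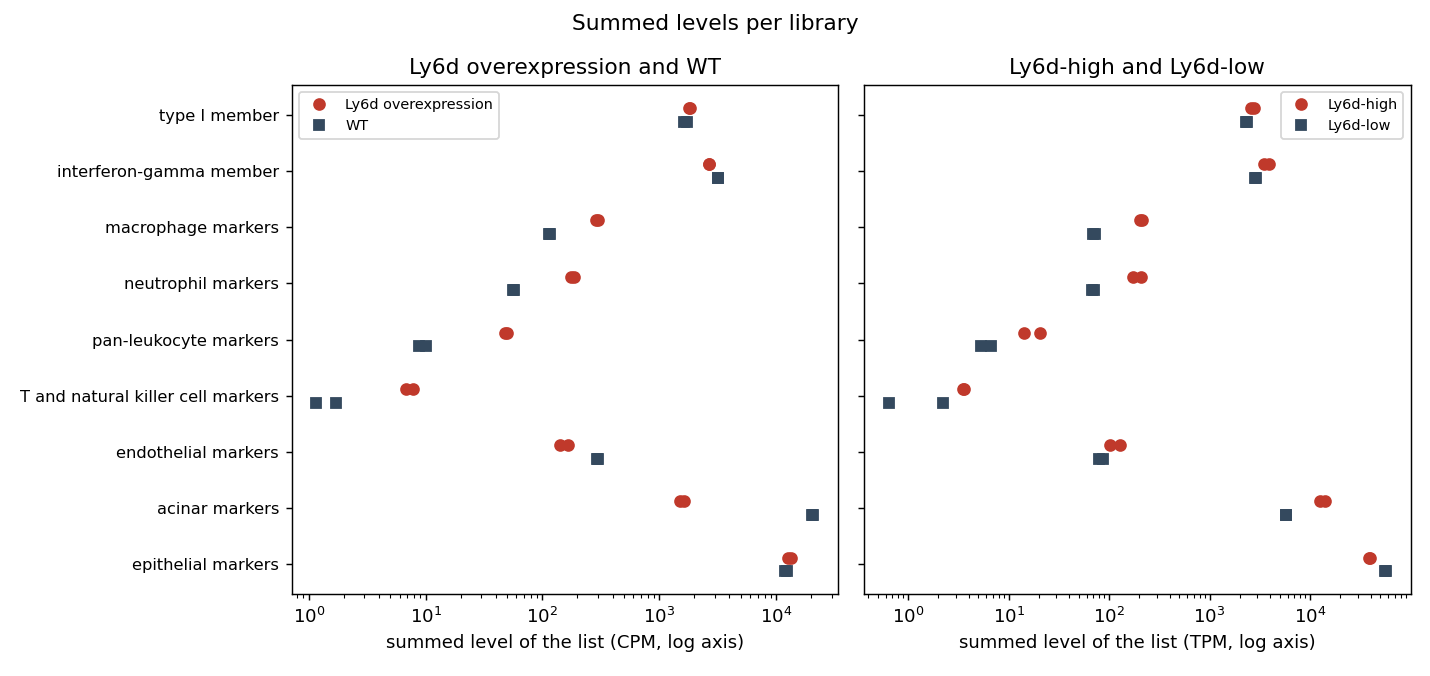
Summed level per library (x axes, log scale; CPM on the left, TPM on the right) of the 2 classes of members and of marker lists of other cell types. Red circles are Ly6d overexpression (left) or Ly6d-high (right) libraries, dark squares WT (left) or Ly6d-low (right) libraries. On the left, interferon-gamma members and endothelial and acinar markers lie lower in overexpression than in WT libraries, and the other lists lie higher. On the right, epithelial markers lie lower in Ly6d-high than in Ly6d-low libraries, and the other lists lie higher.

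The second comparison set tumour cells sorted for high Ly6d against those sorted for low Ly6d. Here the classes did not separate: 4 of 30 type I members and 2 of 10 interferon-gamma members were higher in Ly6d-high cells, and 0 of either class lower. Of all 14625 genes tested, 8.64% were called higher and 1.17% lower (limma on log2(TPM + 1), adjusted p under 0.05), beside which the 6 calls among 40 members stand. At an unadjusted p under 0.05, 0 members of either class were lower. With TMM factors on TPM, edgeR on recovered reads or DESeq2 on them, 0 were called lower too, where 1.7%, 3.87% and 3.55% of all genes were. The median difference was 0.37 for type I and 0.30 for interferon-gamma members, but that of all genes was 0.25, which left 0.13 and 0.06 relative to it. With TMM factors the median of all genes was 0.01, and only Oasl2 and Ifi44 kept their calls, 2 of 40 members where 4.87% of all genes were called higher. By edgeR on recovered reads 3 of 40 members were higher (Oasl2, Ifi44 and Stat2) where 8.01% of all genes were, and by DESeq2 2 of 40 (Oasl2 and Ifi44) where 5.5% were. On TPM as deposited 5 type I and 0 interferon-gamma members had negative differences. With TMM factors on TPM 10 and 4 did, and with edgeR or DESeq2 on recovered reads 10 and 5.

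Oasl2, an oligoadenylate synthetase-like protein with ubiquitin-like repeats, was at 54.9 and 69.1 TPM in Ly6d-high cells, against 30.9 and 32.5 TPM in Ly6d-low cells. Ifi44, an interferon-induced cytosolic protein, was at 13.2 and 16.7 TPM in Ly6d-high cells, against 7.53 and 7.41 TPM in Ly6d-low cells. Both were higher in each Ly6d-high library than in either Ly6d-low library, by a ratio of 1.96 in mean TPM for Oasl2. The difference was 0.94 ± 0.16 for Oasl2 (SE; limma adjusted p = 0.0134) and 0.90 ± 0.18 for Ifi44 (SE; limma adjusted p = 0.0243). With TMM factors it was 0.67 for Oasl2 (limma adjusted p = 0.0276) and 0.65 for Ifi44 (limma adjusted p = 0.0396). Over 10 alternatives the adjusted p ran from 3.07e-07 to 0.108 for Oasl2 and from 4.29e-05 to 0.181 for Ifi44. In overexpression against WT cells, neither passed, at log2 fold changes of 0.02 for Oasl2 and -0.30 for Ifi44.

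Stat2 was at 9.39 and 13.0 TPM in Ly6d-high cells, against 5.64 and 5.79 TPM in Ly6d-low cells. Irf7 was at 92.2 and 103 TPM in Ly6d-high cells, against 63.5 and 64.9 TPM in Ly6d-low cells. Both factors were higher without overlap, by 0.84 ± 0.20 for Stat2 (SE; limma adjusted p = 0.0445) and 0.59 ± 0.13 for Irf7 (SE; limma adjusted p = 0.0356). With TMM factors the differences were 0.60 for Stat2 (limma adjusted p = 0.0684) and 0.32 for Irf7 (limma adjusted p = 0.0977), and edgeR on recovered reads called Stat2 but not Irf7. Over the alternatives the adjusted p ran from 0.000287 to 0.292 for Stat2 and from 0.00116 to 0.495 for Irf7. In overexpression against WT cells their log2 fold changes were -0.27 for Stat2 and 0.06 for Irf7, not past the threshold.

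Igtp was at 872 and 984 TPM in Ly6d-high cells, against 639 and 680.4 TPM in Ly6d-low cells. Iigp1 was at 678 and 797 TPM in Ly6d-high cells, against 504 and 518 TPM in Ly6d-low cells. These GTPases, lower in overexpression than in WT cells, were thus higher in Ly6d-high than in Ly6d-low cells, by 0.49 ± 0.11 for Igtp (SE; limma adjusted p = 0.0329) and 0.52 ± 0.11 for Iigp1 (SE; limma adjusted p = 0.0334). The calls rested on the scale of TPM: with TMM factors the differences were 0.21 for Igtp (limma adjusted p = 0.223) and 0.25 for Iigp1 (limma adjusted p = 0.169), in ranges over the alternatives of 0.000266 to 0.511 for Igtp and 0.000137 to 0.381 for Iigp1. All 6 of these members lost their calls without Ly6d-low replicate 1, without Ly6d-low replicate 2 and without the filter on low values, and the number of members called ran from 0 without either Ly6d-low library to 26 without Ly6d-high replicate 1.

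The 5 type I members called in overexpression cells did not pass in this pair. Ifit3 was at 214 and 241 TPM in Ly6d-high cells, against 164 and 166 TPM in Ly6d-low cells (0.46 ± 0.12, SE; limma adjusted p = 0.0578). Ifit1 was at 102 and 129.9 TPM in Ly6d-high cells, against 84.1 and 90.7 TPM in Ly6d-low cells, with a difference of 0.40. Ifit2 differed by 0.72 and Ifit3b by 0.33, while Mx1 overlapped at 6.72 and 6.04 TPM in Ly6d-high cells, against 6.08 and 7.47 TPM in Ly6d-low cells. The IFIT genes stood higher in both Ly6d-high libraries, as did 54.4% of all genes tested, and Mx1 did not. With TMM factors the differences were 0.12 for Ifit1, 0.46 for Ifit2, 0.18 for Ifit3, 0.06 for Ifit3b and -0.31 for Mx1. Among the interferon-gamma members, Gbp2 differed by 0.39, Irgm1 by 0.36 and Gbp3 by 0.33, with values under TMM of 0.11, 0.09 and 0.05.

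The remaining members ranged from -0.15 for Mx2 to 0.70 for Cmpk2 in this pair. Those at or below 0.10 were Ifi27, Isg15, Eif2ak2, Oas3, Xaf1, Ifi35, Bst2, Trim25, Psmb8 and Psmb9 beside Mx1 and Mx2. Rsad2 (0.63), Oasl1 (0.54), Irf9 (0.50), Usp18 (0.49), Ddx58 (0.46), Oas2 (0.42), Parp14 (0.39), Rtp4 (0.36), Oas1a (0.33), Zbp1 (0.31) and Ifih1 (0.30) lay above them without passing, as did Gbp7 (0.28), Irf1 (0.23) and Gbp5 (0.18). In TPM, 20 type I and 7 interferon-gamma members were higher in both Ly6d-high libraries than in both Ly6d-low libraries, where 54.4% of all genes tested were. Ifi35 was the 1 member lower in both, against 10.4% of all genes.

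**Figure D5:**
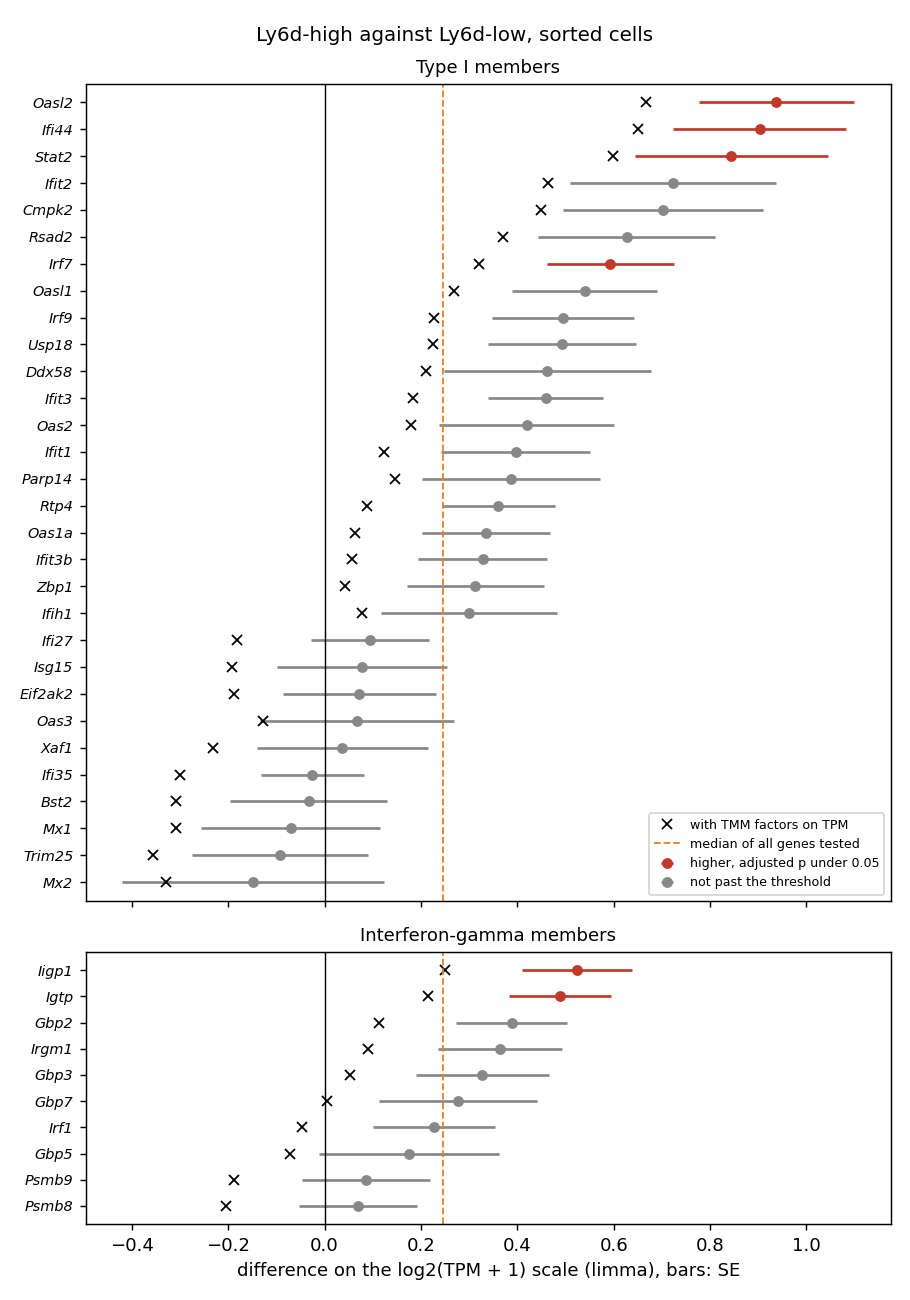
Difference on the log2(TPM + 1) scale (x axis, limma, bars: SE) of Ly6d-high against Ly6d-low sorted cells for each member, type I above and interferon-gamma below. Red points passed an adjusted p of 0.05, grey points did not, crosses give the value with TMM factors on TPM, and the dashed line marks the median of all genes tested, 0.25. Crosses lie left of the points, and those of 10 type I and 4 interferon-gamma members fall below 0.

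In the wider pathway, 1 of 10 sensors and adaptors tested was higher, where 8.64% of all genes were called higher by limma. This was Tmem173 (STING), the adaptor for cytosolic DNA. It was at 149.8 and 174 TPM in Ly6d-high cells, against 70.9 and 67.3 TPM in Ly6d-low cells. The groups were far apart, with a difference of 1.21 ± 0.13 (SE; limma adjusted p = 0.00195). The call held with TMM factors, where the difference was 0.94, and with edgeR and DESeq2 on recovered reads. In overexpression against WT cells Tmem173 was lower without overlap. Its log2 fold change there was -0.30, not past the threshold (edgeR adjusted p = 0.134). Of 11 receptor and signalling genes and 7 negative regulators, 0 passed with limma on TPM, with TMM factors, with edgeR or with DESeq2. At an unadjusted p under 0.05 by limma, 2 of each list were higher. Of the interferon genes 14 had no read in any library and 1, Ifne, could be tested, at 0.376 and 2.04 TPM in Ly6d-high cells, against 1.495 and 0.197 TPM in Ly6d-low cells.

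Of 29 further type I-inducible genes tested, 4 were higher and 1 lower by limma, where 8.64% and 1.17% of all genes were. Epsti1, an interferon-response gene of epithelial and stromal cells, led with 21.9 and 20.0 TPM in Ly6d-high cells, against 3.21 and 3.66 TPM in Ly6d-low cells (2.31 ± 0.17, SE; limma adjusted p = 0.000316). Phf11d (1.15 ± 0.17, SE; limma adjusted p = 0.00653) and the nuclear body protein Sp100 (0.96 ± 0.19, SE; limma adjusted p = 0.0245) followed, and Tor3a was also higher (0.80 ± 0.18, SE; limma adjusted p = 0.0373). The 1 gene lower was Ifitm2, a membrane protein that blocks virus entry, at 849 and 684 TPM in Ly6d-high cells, against 1115 and 1074 TPM in Ly6d-low cells. With TMM factors, only Epsti1 and Phf11d kept their calls, and 15 differences of the list were positive and 14 negative. With edgeR and with DESeq2 on recovered reads, 4 of 30 were called higher and 3 lower. Of all genes, edgeR called 8.01% higher and 3.87% lower there, and DESeq2 5.5% and 3.55%. Of 25 further interferon-gamma-inducible genes, 10 were higher and 0 lower by limma, beside the same 8.64% and 1.17% of all genes. At an unadjusted p under 0.05, 1 was lower. The median difference of the list was 0.66, where that of all genes was 0.25, which left 0.41 relative to it. Summed over all 26 genes of the list, levels went the other way. The sums were 24364 and 19210 TPM in Ly6d-high cells, against 28910 and 26786 TPM in Ly6d-low cells. The highest value of a single gene in any of these libraries was 25814 TPM. DESeq2 on recovered reads called 1 gene of this list lower, B2m, the light chain of MHC class I.

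Serping1, the inhibitor of complement C1, was at 132 and 149.8 TPM in Ly6d-high cells, against 24.3 and 28.5 TPM in Ly6d-low cells. Its difference was 2.37 ± 0.15 (SE; limma adjusted p = 0.000154). Gbp8 was at 24.96 and 25.2 TPM in Ly6d-high cells, against 7.11 and 6.54 TPM in Ly6d-low cells (1.74 ± 0.16, SE; limma adjusted p = 0.00078). The adhesion molecule Icam1 was at 63.1 and 86.8 TPM in Ly6d-high cells, against 19.2 and 19.8 TPM in Ly6d-low cells (1.87 ± 0.18, SE; limma adjusted p = 0.00115). Irf8, a factor of myeloid cells, was at 4.47 and 5.01 TPM in Ly6d-high cells, against 0.375 and 0.334 TPM in Ly6d-low cells (2.08 ± 0.21, SE; limma adjusted p = 0.00134). These 4 differences exceeded that of any of the 40 members, and 8 of the 10 calls were made with TMM factors too.

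Several lists of leukocyte markers were higher in this comparison as well. Calls are by limma on TPM, which called 8.64% of all genes higher and 1.17% lower, unless another setting is named. Macrophage markers summed to 213 and 204 TPM in Ly6d-high cells, against 72.5 and 69.3 TPM in Ly6d-low cells, with 5 of 9 tested genes called higher. With TMM factors 4 of 9 were higher, by edgeR on recovered reads 7 of 13 and by DESeq2 on them 4 of 15. Pan-leukocyte markers summed to 20.7 and 14.4 TPM in Ly6d-high cells, against 6.75 and 5.32 TPM in Ly6d-low cells, with 2 of 4 tested called higher. With TMM factors 1 of 4 was higher, by edgeR on recovered reads 2 of 5 and by DESeq2 on them 0 of 5. B and plasma cell markers summed to 95.8 and 83.4 TPM in Ly6d-high cells, against 6.88 and 5.86 TPM in Ly6d-low cells, and 2 of 4 tested were called higher. Each of these 3 sums was above those of Ly6d-low cells in both Ly6d-high libraries. T and natural killer cell markers summed to 3.53 and 3.58 TPM in Ly6d-high cells, against 2.21 and 0.644 TPM in Ly6d-low cells, with Gzma and Ncr1 at 0 in all. Acinar markers summed to 14163 and 12554 TPM in Ly6d-high cells, against 5774 and 5761 TPM in Ly6d-low cells, and 9 of 12 were called higher. With TMM factors 5 were higher and 0 lower, and by edgeR or DESeq2 on recovered reads 7 were higher and 1 lower. Among 7 epithelial markers 1 was higher (Cldn4) and 4 lower (Krt7, Krt8, Krt18 and Krt19). With TMM factors 1 was lower (Krt7), and by edgeR or DESeq2 on recovered reads 5 were, with Cldn4 higher in each setting. The epithelial sum was 39571 and 38653 TPM in Ly6d-high cells, against 55468 and 56579 TPM in Ly6d-low cells. The part of these cells in the members' differences was not tested.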

How the data were processed

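Per the labels' protocols, TRIzol total RNA was sequenced with Illumina chemistry. The submitters' processing notes name the tools fastp, HISAT2, featureCounts and DESeq2 (no versions) and the build mm9. Coordinates in the deposited tables are instead those of GRCm38: 54409 of 54532 genes were found in its GENCODE M21 annotation, 98.3% of them with equal positions. The strand setting of the counting is not given in the sources used. The deposited count table holds raw counts per gene for WT and overexpression cells, and 2 further per-sample columns matched no label and were not used. For Ly6d-high and Ly6d-low cells the authors deposited TPM, from which reads were recovered as whole numbers for 100% of 85643 values above 0, within 0.1 reads. The deposited length column (bases of the gene model, of no other unit) served for RPKM. 27 gene names differed between the tables and were taken from the count table.

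The test on counts was edgeR's quasi-likelihood test (version 4.0.16, R 4.3.3), after filterByExpr and TMM scaling. The test on TPM was limma-trend (limma 3.58.1) with a pseudocount of 1 before taking log2, which understates changes of low genes, and it kept genes that reached 1 TPM in 2 or more libraries. P-values were adjusted by Benjamini-Hochberg over all genes tested, with a threshold of 0.05. Both procedures were tested on simulated data, with planted changes larger than that of any member. For the TPM test these were planted only in genes with more reads than many members had. The simulation therefore does not tell how well changes of the members' size are recovered. Standard errors for edgeR were derived from its fold change and F statistic. The tables were normalized separately and not tested against each other. The members, the classes and the 16 other lists (202 genes) were chosen with earlier results of these data known, so the lists were described by counts and medians and not tested. Every member is given with its level or difference, with statistics for those past the threshold in either comparison, and up to 4 called genes are named from each other list by lowest p. Genes named beyond this rule (Ifit1bl1, Ifng, Ifne, Socs3, B2m, Psmb10, Ifitm2, Gbp6, Gbp9, Gbp10 and markers) were chosen after their values were seen. Alternatives were size factors, no filter, another pseudocount, DESeq2 1.42.0, edgeR on recovered reads, TMM factors on TPM, a replicate block and leaving out each library. Same-numbered Ly6d-high and Ly6d-low libraries had a correlation of 0.068 in their deviations over 14625 genes, and 2 pairs do not show that the numbers pair them.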

Additional observations from a re-analysis of the deposited data

How the results depend on the processing

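In overexpression against WT cells, counts of members called stayed within 1.5 times of those reported under size factors, without the filter, with DESeq2 and without antigen receptor segments and acinar markers (added after seeing the data). Without the filter 1187 genes were called in all, against 656. Leaving out 1 library each gave 565 to 1584 genes, 3 to 6 type I members higher, 0 to 1 lower, 2 to 5 interferon-gamma members lower and a type I median of 0.11 to 0.18. No paired analysis was possible because the overexpression columns could be tied to their group but not to the numbered samples of the labels.

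In Ly6d-high against Ly6d-low cells more depended on the setting, and the cause was not tested beyond the shift of all genes. With TMM factors on TPM, 2 members were called, 2 of type I and 0 of interferon-gamma, with medians of 0.105 and 0.0289. With edgeR on recovered reads, 3 members were called, 0 of them of interferon-gamma, with medians of 0.0961 and 0.0117. With DESeq2 on them, 2 members, both of type I, and 0 of interferon-gamma were called, with medians of 0.0823 and -0.0022, so that the interferon-gamma median turned its sign. Without the filter 531 genes and 0 members of either class were called. The replicate block gave 4179 genes and 17 members, 13 of type I and 4 of interferon-gamma, all higher. Leaving out 1 library each gave 931 to 6710 genes, 0 to 26 members, 0 to 18 type I members higher, 0 to 1 lower, 0 to 7 interferon-gamma members higher, and medians of 0.32 to 0.45 and 0.19 to 0.47.

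With 2 libraries a group, each leave-one-out fit assumes that the lone library varies like the other group. The lowest value of a member rests on 37 reads, so counting error is widest for Mx2. Of 16 calls of members, the direction held in every alternative. The groups of these members did not overlap and the alternatives refit the same libraries, so this outcome was nearly set beforehand. It gives no further evidence for the calls. Igtp and Iigp1 were called in both comparisons and are counted in each.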

Other observations

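The guanylate-binding proteins lie in clusters on chromosomes 3 and 5, whose values are given here for Ly6d-high against Ly6d-low cells. Of the members on chromosome 3 (Gbp2, Gbp3, Gbp5 and Gbp7), 0 were called by limma, by either scaling or by the count tests, with differences of 0.18 to 0.39. Of 5 further genes on chromosome 5, the 4 genes Gbp4, Gbp6, Gbp8 and Gbp10 were higher, by 0.94 to 2.10. Gbp10 was at 8.98 and 13.5 TPM in Ly6d-high cells, against 1.496 and 2.16 TPM in Ly6d-low cells (2.10 ± 0.25, SE; limma adjusted p = 0.00251). Gbp9 was at 14.5 and 20.2 TPM in Ly6d-high cells, against 10.1 and 10.7 TPM in Ly6d-low cells, and did not pass. The annotated spans of Gbp4 and Gbp8 overlap on the same strand, so their reads may be shared. Of the same chromosome 5 genes in overexpression against WT cells, Gbp4 was called lower, Gbp6 and Gbp8 had log2 fold changes of -0.54 and -0.65 without passing, and Gbp10 had 0.06. The difference between the clusters was chosen after seeing the values and was not tested.

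The Ly6d-high libraries differed from each other with gene length. Among the 40 members, the difference of replicate 2 from replicate 1 had a Spearman correlation with gene length of 0.43, against 0.33 over all 14625 genes tested. Genes share libraries and depth here, and the value is a description. Between Ly6d-low replicates the values were 0.25 and 0.13. For the difference between Ly6d-high and Ly6d-low cells, the correlation with length was 0.169 over members and 0.15 over all genes. With TMM factors it was 0.23 and 0.145, and for overexpression against WT cells -0.102 and 0.011. These too are descriptions, and the part of gene length in the members' differences between the groups was not tested.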
